A study of Mus musculus with 2 samples.

Results

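Aminoacyl-tRNA synthetases are the enzymes that load each tRNA with its amino acid, and their messenger RNAs were measured here in embryonic mouse limb. The genes were chosen by name: protein-coding genes of the GENCODE M21 annotation called by an amino acid letter followed by "ars" or "ars2", together with Eprs, Farsa, Farsb, Fars2, Aimp1 and Aimp2. This gave 39 of the 43346 genes in the tables, and all 39 genes that the annotation holds under these names were found. Of them, 20 encode cytoplasmic enzymes or their subunits, 17 encode mitochondrial enzymes (names ending in 2), and 2 (Aimp1 and Aimp2) encode scaffold proteins that are not enzymes.

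Total RNA was sequenced from limbs of E11.5 embryos of the mouse strain B6NCrl, without any treatment or genetic change named in the labels. The labels give 1 group with 2 biological replicates, pools of 109 embryos (replicate 1) and 88 embryos (replicate 2) of both sexes, and they do not separate forelimb from hindlimb. There is therefore no contrast between conditions: the comparisons are between genes, between transcripts and between the 2 pools. Each pool mixes all cell types of the limb, so fewer cells of a type and less RNA per cell cannot be told apart.

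Depth was 42.95 M expected counts in replicate 1 and 35.07 M in replicate 2. Genes took 40.65 M and 32.3 M of them, and added spike-in RNAs 5.368% and 7.92%. All 9 limb mesenchyme markers examined were detected, with a median level of 28.05 TPM (a level scaled to a fixed total and corrected for gene length, which can be compared between genes). Markers of ectoderm, muscle precursors, red blood cells, endothelium, macrophages and neurons were also all detected. Of the liver and heart markers, Alb (0.73 and 0.09 TPM in replicates 1 and 2), Afp (4.7 and 2.09 TPM) and Nppa (1.59 and 0.23 TPM) were lower in replicate 2 by the exact binomial test described below, and their part in the synthetase values was not tested.

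A cell needs a full set of synthetases for its cytoplasmic ribosomes and another for the ribosomes inside its mitochondria. In mammals most amino acids have a separate nuclear gene for each compartment, whereas the glycine and lysine enzymes of both compartments come from a single gene, Gars and Kars. Several cytoplasmic enzymes sit in a multisynthetase complex held together by the Aimp proteins, and Eprs joins the glutamate and proline enzymes in a single chain. Many cytoplasmic synthetase genes are known targets of the transcription factor Atf4, which acts through C/EBP-ATF elements when amino acids run short.

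Sequences are shown for the genes in which the DNA bears on a result. Gars had a single transcript in the tables, Gars-201, whose coding part holds 729 codons. It opens with the stretch below (GRCm38, chr6:55038042-55038182, + strand), in which capitals mark the annotated start codon and the next ATG in the same frame, 46 codons further on, which leaves 683 codons.
Gars-201 start: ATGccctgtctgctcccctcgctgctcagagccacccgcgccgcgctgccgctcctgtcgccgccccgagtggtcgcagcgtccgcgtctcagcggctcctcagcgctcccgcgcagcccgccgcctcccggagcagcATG
As background, the mitochondrial glycine enzyme starts at the upstream codon and the cytoplasmic one further downstream. Both forms would therefore be counted on this 1 transcript, and the Gars level below cannot be divided between compartments.

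Kars differs, because its forms begin in different exons. Kars-201 starts in the first exon (chr8:112011210-112011268, minus strand) and encodes 595 codons. Kars-202 and Kars-203 skip this start and begin in another exon (chr8:112008207-112008352, minus strand), for 624 codons, 29 more. The coding parts of these start exons are shown with the start codon in capitals.
Kars-201 start: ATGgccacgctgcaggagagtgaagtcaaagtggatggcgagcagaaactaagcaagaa
Kars-202 start: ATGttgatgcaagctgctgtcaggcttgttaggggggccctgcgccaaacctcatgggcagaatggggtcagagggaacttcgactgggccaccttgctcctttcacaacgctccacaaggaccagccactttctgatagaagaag
The longer form is the one known to enter mitochondria.

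Promoters from RefSeq (GRCm38.p6, 250 bases before to 50 after the start) were matched for 29 of the 39 genes, 13 cytoplasmic, 14 mitochondrial and 2 scaffold. The C/EBP-ATF element, searched as TGATGNAA on both strands, stood in 5 of the 13 cytoplasmic promoters (Aars, Gars, Iars, Tars and Yars) and in 0 of the 14 mitochondrial ones. Among 27025 genes with a promoter, 4.511% held it. The windows of 30 bases below, 1 for each gene around the match nearest its start, show the element in capitals on the strand of the gene, where all but that of Yars read as the reverse complement.
Aars, chr8:111033840-111033869: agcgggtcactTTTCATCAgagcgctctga
Gars, chr6:55037960-55037989: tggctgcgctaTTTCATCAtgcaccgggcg
Iars, chr13:49682126-49682155: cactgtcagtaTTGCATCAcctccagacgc
Tars, chr15:11399655-11399684: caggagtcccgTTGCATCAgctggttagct
Yars, chr4:129189895-129189924: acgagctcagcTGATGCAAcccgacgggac
The matches shown began 30 bases before the RefSeq start in Gars and 15 before in Tars. In Iars, Yars and Aars the match nearest the start lay just after the start, from base 7, base 3 and base 9, with the start base counted as 0. A match describes letters only and is not a measurement of binding.

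Gars is shown at greater length because a single promoter there holds the C/EBP-ATF element and, further upstream, an ETS core (CCGGAAG, here as its reverse complement). Both are in capitals in the 250 bases before the start (chr6:55037751-55038000, + strand).
Gars upstream: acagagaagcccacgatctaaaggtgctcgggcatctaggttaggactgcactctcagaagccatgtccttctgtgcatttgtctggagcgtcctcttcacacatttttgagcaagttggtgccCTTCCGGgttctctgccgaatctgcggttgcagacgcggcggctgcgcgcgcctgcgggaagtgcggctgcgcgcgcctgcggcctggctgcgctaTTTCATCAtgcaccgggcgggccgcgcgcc
The ETS core stood in 5 of 13 cytoplasmic and 4 of 14 mitochondrial promoters, against 9.928% of all genes.

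A core of the site of NRF1, a factor known for nuclear genes of mitochondria, was searched as GCGCATGC. It was found in 3 of the 14 mitochondrial promoters (Rars2, Vars2 and Wars2) and in 0 of the 13 cytoplasmic ones, and in 3.049% of all genes. Its sites are shown in capitals, on the strand of the gene.
Rars2, chr4:34614895-34614924: cggccccgtgtGCATGCGCactccacactt
Vars2, chr17:35667620-35667649: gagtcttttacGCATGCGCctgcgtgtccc
Vars2, chr17:35667594-35667623: tccccgcccacGCATGCGCgcgcacctcgc
Wars2, chr3:99141015-99141044: ccagaggacagGCGCATGCgtagtaagcac
The E-box CACGTG stood in 4 of 13 cytoplasmic promoters (Aars, Farsb, Iars and Tars) and in 1 of 14 mitochondrial ones (Ears2), with 8.093% over all genes. A TATA box written TATAAA stood in 1 of 13 and 2 of 14, with 15.67% over all genes. Every one of these motifs was searched on both strands, the letters of none contain another, and no test was made of these counts.

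All 39 genes were detected, at 1 TPM or more in both libraries, where 56.3% of the 21474 protein-coding genes were. The cytoplasmic enzymes lay in a band, from 46.12 to 225.9 TPM in replicate 1 and from 44.77 to 212.3 TPM in replicate 2, with medians of 95.2 and 92.2 TPM. The mitochondrial enzymes had medians of 16.02 and 15.97 TPM and a far wider range, from 1.88 to 778.9 and from 2.08 to 669.6 TPM. Only Lars2 and Rars2 of the mitochondrial enzymes exceeded the lowest cytoplasmic enzyme in both libraries. For scale, the median over the 12081 protein-coding genes detected was 20.13 and 19.47 TPM. Together the 39 genes took 0.6109% and 0.5934% of the counts on genes (0.4068% and 0.41% without Lars2, described below), and their expected counts ran from 392.95 (Cars2, replicate 2) to 82963 (Lars2, replicate 1).

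**Figure D1:**
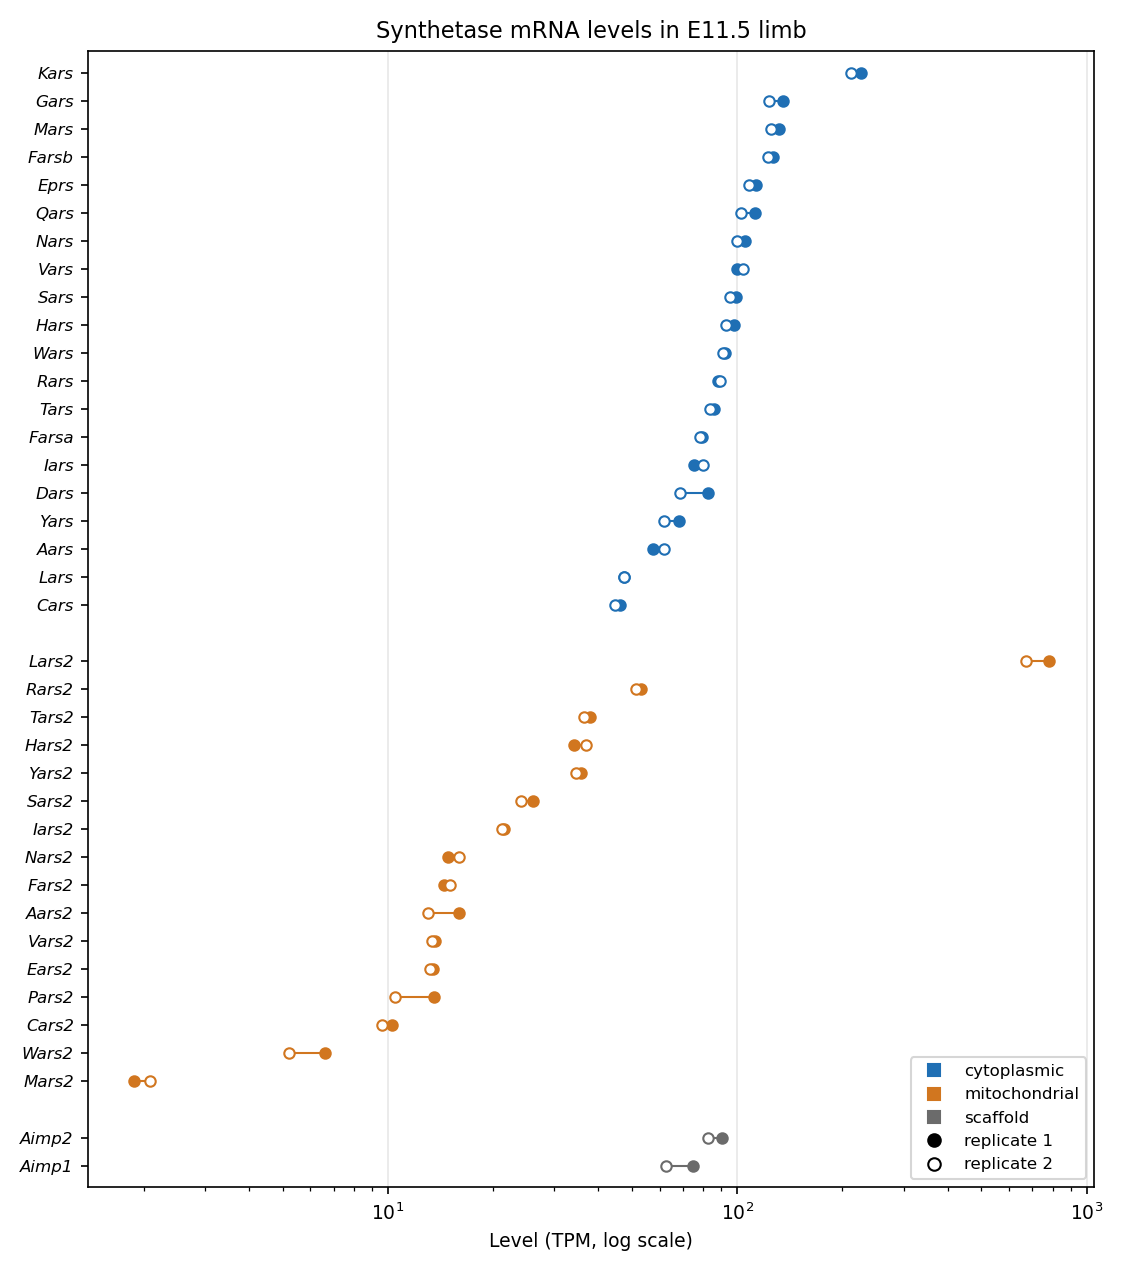
Level of 38 of the 39 genes (TPM, log scale) in replicate 1 (filled) and replicate 2 (open), with cytoplasmic enzymes in blue, mitochondrial enzymes in orange and scaffold genes in grey. The cytoplasmic genes form a narrow band between 44.77 and 225.9 TPM, and most mitochondrial genes lie below it, with Lars2 far above.

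Kars, for lysine, was the highest cytoplasmic gene, at 225.86 and 212.32 TPM (219.1 ± 9.57, SD, n = 2), rank 620 of the protein-coding genes. Gars, for glycine, followed at 135.64 and 122.97 TPM, Mars, for methionine, at 131.89 and 125.31, and Farsb, the beta subunit of the phenylalanine enzyme, at 126.92 and 122.54. Both libraries of Kars stood above both of Gars, whereas the libraries of Gars, Mars and Farsb overlapped. The 2 genes that serve both compartments thus had the highest mean levels of the cytoplasmic set.

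At the low end of the cytoplasmic set, Cars, for cysteine, had 46.12 and 44.77 TPM, and Lars, for leucine, 47.47 and 47.40 TPM. Their libraries did not overlap each other. Aars, for alanine, followed at 57.50 and 61.87 TPM and Yars, for tyrosine, at 68.00 and 61.78 TPM, and these overlapped. Aars shares 1326 of its 9282 exon bases in M21 (14.29%) with Exosc6, a gene for a subunit of the RNA exosome on the same strand. No level was given for Exosc6, so counts on the shared bases could not be divided between these genes. The alanine pair below carries the same limit.

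The remaining cytoplasmic genes lay close together. Eprs (glutamate and proline) had 113.11 and 108.08 TPM, Qars (glutamine) 112.68 and 102.42, Nars (asparagine) 105.10 and 100.22, Vars (valine) 100.03 and 104.13, and Sars (serine) 99.25 and 95.48. Hars (histidine) had 98.01 and 93.16 TPM, Wars (tryptophan) 92.39 and 91.25, Rars (arginine) 87.86 and 89.47, Tars (threonine) 85.75 and 83.42, Dars (aspartate) 82.69 and 68.56, Farsa (the alpha subunit for phenylalanine) 79.25 and 78.23, and Iars (isoleucine) 75.30 and 79.65. Dars was the widest of these between libraries. Over the whole order of 39 genes by mean level, the libraries of 17 of 38 neighbouring pairs did not overlap.

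Lars2, the mitochondrial leucine enzyme (chr9:123366927-123462666, + strand), stood apart from all others at 778.88 and 669.57 TPM (724 ± 77.3, SD, n = 2), rank 136 of the protein-coding genes. Its 3′ untranslated region holds a stretch that also occurs in other annotated genes. Of the 3864 runs of 31 bases in Lars2-201, 42 recur elsewhere, all within bases 3172 to 3329 of the transcript, beyond the last coding base at 2905 (chr9:123461942-123462099). They recur in AA474408, at 1.13 and 0.94 TPM, and in Gm15564, at 0.12 and 0.14 TPM. As background, this stretch resembles the RNA of the large ribosomal subunit. Of it, 30 bases found in both of those genes are shown (chr9:123462048-123462077).
Lars2 shared stretch: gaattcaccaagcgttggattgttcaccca
The tables give a single total for Lars2-201, so counts on this stretch cannot be separated from the rest. Its part in the Lars2 level was not tested. Group values are therefore also given without Lars2: the mitochondrial median is then 15.46 and 15.54 TPM, and the highest gene is Rars2.

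Rars2, for arginine, had 52.99 and 51.28 TPM, and Tars2, for threonine, 38.01 and 36.33. Rars2 lay above Lars and Cars in both libraries. Next came Hars2 (histidine) at 34.11 and 37.02 TPM, Yars2 (tyrosine) at 35.68 and 34.60, Sars2 (serine) at 26.02 and 24.12, and Iars2 (isoleucine) at 21.58 and 21.25. From Tars2 to Yars2 each gene overlapped the next in its libraries, and Sars2 and Iars2 overlapped no neighbour.

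A cluster of mitochondrial genes lay between 13.05 and 16.02 TPM. Nars2 (asparagine) had 14.90 and 15.97 TPM, Fars2 (phenylalanine) 14.45 and 15.11, Aars2 (alanine) 16.02 and 13.05, Vars2 (valine) 13.67 and 13.34, and Ears2 (glutamate) 13.48 and 13.18. Nars2 and Fars2 lay above Vars2 and Ears2 in both libraries, but Nars2 and Fars2 overlapped each other, as did Vars2 and Ears2, and Aars2 overlapped all of them. The 4 lowest were Pars2 (proline) at 13.58 and 10.51 TPM, Cars2 (cysteine) at 10.29 and 9.61, Wars2 (tryptophan) at 6.63 and 5.20, and Mars2 (methionine) at 1.88 and 2.08. No libraries overlapped among these last 4.

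Mars2 (chr1:55237177-55248470, + strand) was rank 11343 of the protein-coding genes. Its level rests on 594 and 546 expected counts, more than Cars2 had, spread over an annotated length of 11294 nt.

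In the scaffold genes, Aimp2 had 90.27 and 82.44 TPM and Aimp1 74.76 and 62.59 TPM, both within the cytoplasmic band. The third scaffold gene of the complex, Eef1e1, falls outside the naming rule and had 66.98 and 60.89 TPM. The 8 cytoplasmic enzymes of the complex had a median mean level of 98.11 TPM, against 93.7 TPM for the 12 others. Class I and class II enzymes, which have unrelated catalytic folds, had cytoplasmic medians of 88.66 and 96.48 TPM and mitochondrial medians of 13.5 and 20.25 TPM (13.42 for class I without Lars2). Neither split was tested, because genes are not replicates. Of the phenylalanine subunits, which form a complex of equal numbers, Farsb was 1.584-fold above Farsa (log2 difference 0.66 ± 0.02, SD, n = 2 libraries).

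For 17 amino acids the cytoplasmic and mitochondrial genes could be set side by side. In 16 of these pairs the cytoplasmic gene was higher in both libraries, and in 1, leucine, the mitochondrial gene was. The difference is given as log2 of cytoplasmic over mitochondrial TPM, with 0.1 TPM added to each. Its median over pairs was 2.04 (1.93 in replicate 1 and 2.21 in replicate 2), or 4.104-fold. The value of 2.04 is that of 1 pair, alanine, which had the largest SD between libraries and carries the Exosc6 limit given above. The SD of a pair between libraries had a median of 0.07 and a maximum of 0.28, small beside most of the differences.

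The widest pair was methionine, in which Mars was 61.93-fold above Mars2 (log2 difference 5.95 ± 0.15, SD, n = 2). With only the most abundant protein-coding transcript of each gene, this pair had a log2 difference of 5.04. In CPM (counts scaled to library size) not divided by length its log2 difference fell to 3.38, below proline (4.24), glutamate (3.85) and tryptophan (3.53), so its place as the widest pair rests on the length correction. In TPM tryptophan followed at 15.39-fold (3.94 ± 0.23). With Eprs on the cytoplasmic side, proline stood at 9.186-fold (3.20 ± 0.21) and glutamate at 8.241-fold (3.04 ± 0.02). Valine was 7.51-fold, phenylalanine 6.845-fold (the mean of both cytoplasmic subunits), asparagine 6.617-fold, cysteine 4.534-fold and alanine 4.104-fold higher on the cytoplasmic side. These 9 pairs were each above 4-fold, and 13 pairs were above 2-fold.

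The narrower pairs were serine at 3.874-fold, isoleucine at 3.604-fold, histidine at 2.684-fold and threonine at 2.273-fold. Tyrosine (1.842-fold) and arginine (1.699-fold, log2 difference 0.77 ± 0.05) were the closest, yet in each both libraries of the cytoplasmic gene were above both of the mitochondrial gene. Leucine ran the other way, with Lars2 15.19-fold above Lars (log2 difference -3.93 ± 0.15). This pair carries the limit of the Lars2 level given above, in which counts on the shared stretch could not be separated from the rest. Without leucine the median of the 16 pairs was 2.11.

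**Figure D2:**
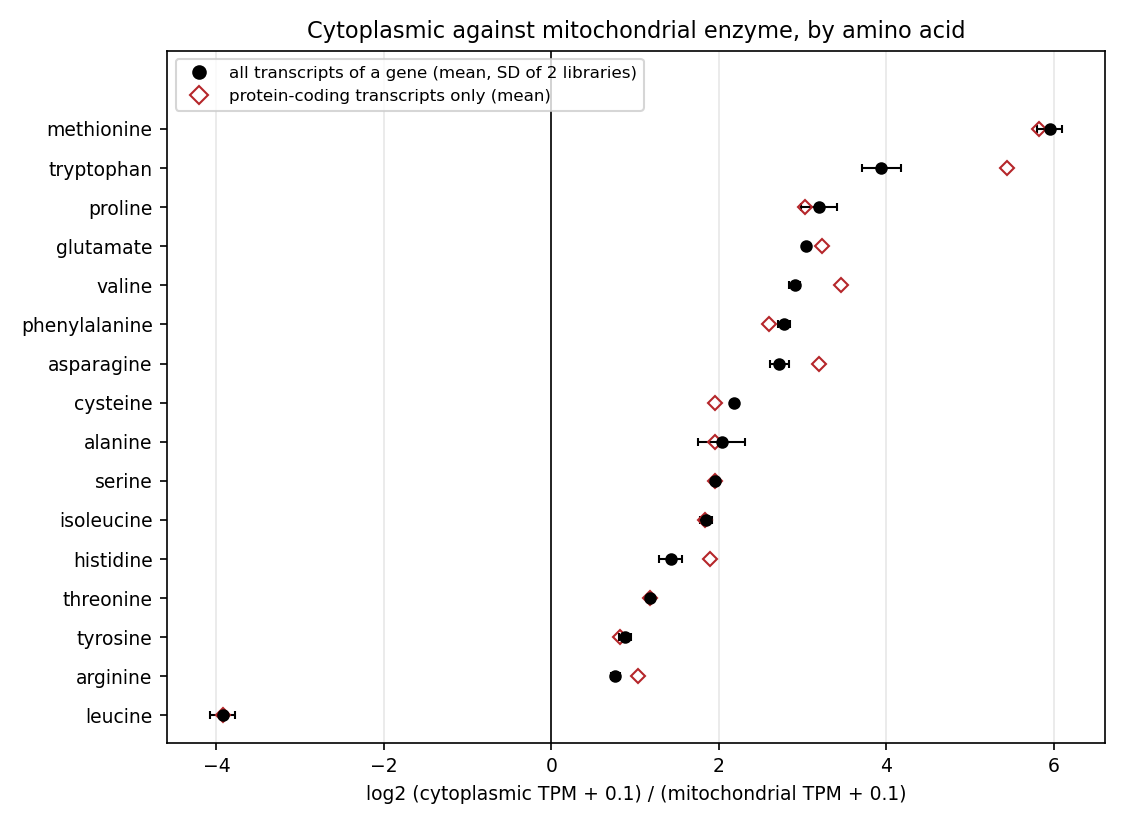
Difference between the cytoplasmic and the mitochondrial gene for 16 amino acids, as log2 of (cytoplasmic TPM + 0.1) over (mitochondrial TPM + 0.1), where black points and bars are the mean and SD of 2 libraries over all transcripts and red diamonds use protein-coding transcripts only. All pairs but leucine lie right of 0, and tryptophan moves from 3.94 to 5.45 when only protein-coding transcripts count.

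The transcripts that made up each level differed between genes. Protein-coding transcripts held a median of 97.92% of a gene's TPM, and 11 genes had a single transcript in the tables. Genes with under 50% included Wars2, Qars and Vars2. Between 50% and 75% lay Vars (70.11%), Hars2 (71.86%) and Nars2 (72.3%).

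For Wars2, transcripts annotated for nonsense-mediated decay, a pathway that removes messages with an early stop, held 62.81% of the TPM. Wars2-203, of this type, was the most abundant with 61.66% and 55% in the 2 libraries, and protein-coding transcripts held 27.6% and 40.96%. On protein-coding transcripts the tryptophan pair was 43.62-fold apart. In Vars2, Vars2-201 led with 48.55% and 46.05%, retained-intron forms held 35.01% and decay forms 17.64%.

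Qars was the only cytoplasmic gene under 50% coding, at 38.83% and 38.45%. Its leading transcript, Qars-201, held 34.33% and 30.9%, Qars-216, a decay form of 761 nt, 22.62% and 22.98%, and 1 further transcript whose identifier M21 does not hold had 16.85% and 15.2%. That transcript has no type in M21 and was not counted as coding, so the place of Qars under 50% rests on this choice. Nars2 was another gene whose leading transcript fell under 50%, with Nars2-201 at 40.74% and 43.29%. The leading transcript was protein-coding in 37 of 39 genes.

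**Figure D3:**
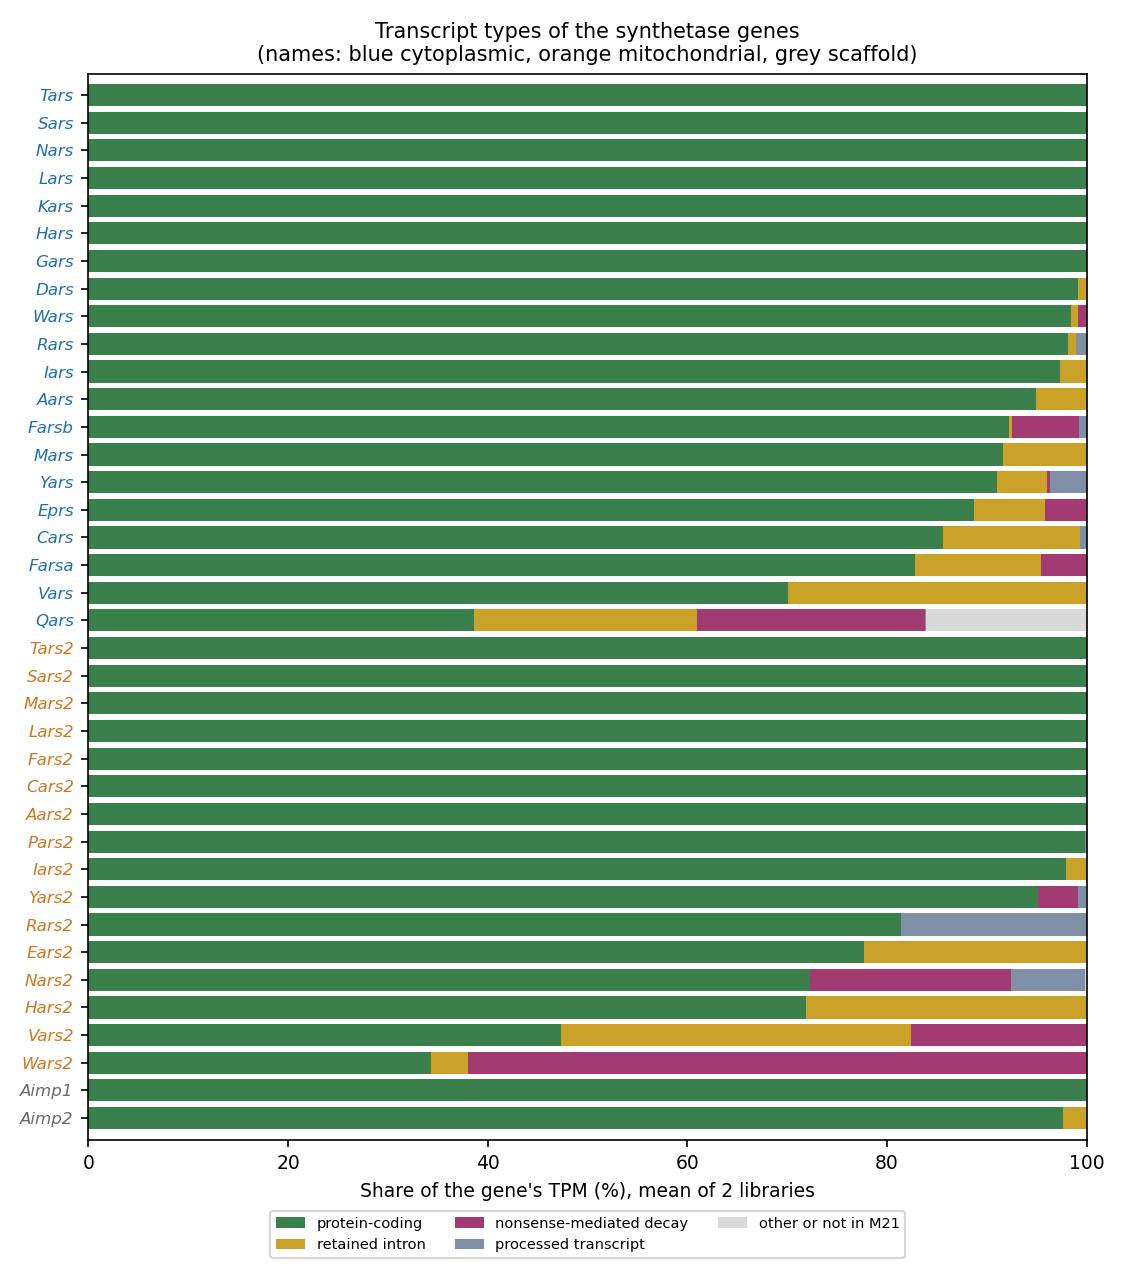
Share of the TPM (%, mean of 2 libraries) of 38 genes held by transcripts of each annotated type, with gene names in blue for cytoplasmic, orange for mitochondrial and grey for scaffold genes. Most bars are nearly all protein-coding, whereas Wars2, Qars and Vars2 hold 34.28%, 38.64% and 47.34% coding.

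In Kars the transcript with the shorter start, Kars-201, held 85.18% and 84.16% of the TPM. Kars-202, with the longer start shown above, held 12.99% and 14.34%, and Kars-203, with the same start, 1.83% and 1.5%. In level this was 192.38 and 178.69 TPM for Kars-201 and 29.35 and 30.44 TPM for Kars-202. The Kars-202 level alone lay above the mitochondrial median.

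Transcript shares varied more between pools in some genes than gene levels did. Wars-201 held 53.08% of Wars in replicate 1 and 68.95% in replicate 2, and Wars-205, with a coding part of the same 1425 nt, held 40.21% and 21.65%, while Wars as a whole had 92.39 and 91.25 TPM. Mars-203, a coding transcript of only 621 nt, held 39.41% and 37.28% of Mars beside the 51.96% and 54.46% of full-length Mars-201. Shares of this kind come from a statistical division of reads among overlapping forms, and they were not tested.

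For the other genes the leading transcript was protein-coding and held more than 50% of the TPM, from 51.26% in Hars2 upward. It was the transcript numbered 201 in all but Hars2 (Hars2-206), Cars (Cars-202), Iars (Iars-206) and Sars (Sars-202). Its mean share was 62.91% in Vars, 74.35% in Cars, 77.4% in Pars2, 77.44% in Aimp2, 77.68% in Ears2 and 77.73% in Iars2. Higher still were Farsa (81.23%), Rars2 (81.39%), Yars2 (83.16%), Sars (85.71%), Farsb (87.97%), Tars2 (88.61%) and Eprs (88.7%). Above 90% were Yars (91.04%), Aars (94.85%), Iars (95.94%), Rars (98.11%), Dars (99.11%) and Fars2 (99.56%).

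Several members share bases with other genes, and whether the counting used strand is not stated in the labels or file headers. Exons of 16 of the 39 genes overlap a gene on the opposite strand. By share of the member's exon bases the largest were Iars2 with Rab3gap2 (2034 bases, 22.89% of its exon bases) and Aimp2 with Eif2ak1 (487 bases, 29.44%). Hars and Hars2 overlap each other head to head by 195 bases, and Mars overlaps Ddit3 by 68. Cars2, at 10.29 and 9.61 TPM, shares 422 bases with Naxd, at 79.24 and 65.32 TPM, and Ears2 shares 89 bases with Ubfd1, at 84.68 and 79.52 TPM, so that in both the other gene was the more abundant. Runs of 31 bases were compared on M21 sequences, whereas the deposited values rest on M4. Some lengths differ, as in Tars-201, with 4005 nt in M21 and 2636 nt in the deposited values. By sequence, 19 of the 39 leading coding transcripts had no run of 31 bases in any other gene. A further 10 had over 5% of such runs elsewhere. Among the latter, Aars shared 22.66% of its runs, with Exosc6, Iars 17.68%, mostly with Gm4849, and Aimp1 5.931%, mostly with Gm8869. Those partners share the runs on the same strand, so counting by strand would not separate them. Values of the genes with overlaps or shared runs are uncertain, by an amount that the shared bases do not bound.

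Between the pools, none of the 39 genes was called. The test was an exact two-sided binomial test of counts scaled by TMM, with Benjamini-Hochberg adjustment over 16787 genes, and a call needed an adjusted p of at most 0.05 and a 2-fold ratio. It called 2.99% of all genes, but 0.556% of those with at least 100 counts, and 23 of the 12081 protein-coding genes detected. All 39 genes held more than 100 counts, so 0 calls among them is near the share of genes with such counts. The test compares 2 libraries beyond counting error, not 2 conditions. At an unadjusted p under 0.05 with the same ratio the count was also 0, against 3.79% of all genes whatever their level. Without the ratio it was 17, against 38.8% of all genes. With edgeR's exact test, whose spread was taken from the 2 libraries, 0 of the 39 were called and 1 had an unadjusted p under 0.05, against 4.76% of all genes. That spread includes the difference under test, so this result cannot show a lack of difference between the pools.

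On the adjusted p alone 14 of the 39 passed, 5 higher and 9 lower in replicate 2, against 29.3% of all genes. The largest ratios were small: the log2 ratio of replicate 2 over replicate 1 was -0.37 for Pars2 (858 and 532 expected counts before scaling), 0.27 for Nars2 (886.58 and 859.66) and -0.25 for Aars2 (1466 and 992). Their adjusted p values by the exact test were 3.43e-05, 0.00078 and 0.000303. Lars2 had the smallest adjusted p, 3.05e-103, at a log2 ratio of -0.17. Others lower in replicate 2 included Dars (-0.22), Aimp1 (-0.21), Qars (-0.11), Yars (-0.10) and Gars (-0.09), and those higher were Vars (0.18), Hars2 (0.13), Iars (0.07) and Aars (0.07).

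The median log2 ratio of the 39 genes was -0.0037, beside -0.0076 over all genes tested. Scaling by spike-ins moved the median of all genes to -0.59 and that of the 39 genes to -0.59, and all 39 then passed the adjusted p alone, each lower in replicate 2, against 80.8% of all genes in either direction. A scaling shifts every gene by the same amount, so the difference between these medians, 0.0038, does not depend on it. In TPM, which counts spike-ins in its total, 31 of the 39 were higher in replicate 1, where spike-ins took 11.79% of TPM against 17.15% in replicate 2.

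**Figure D4:**
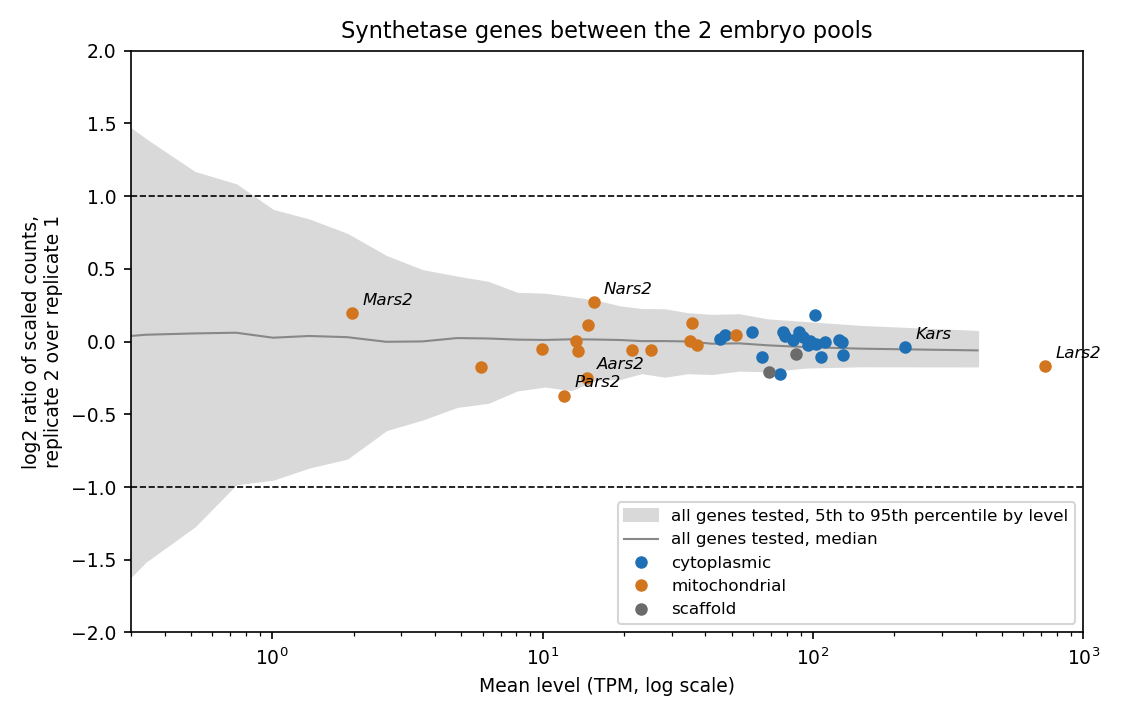
Log2 ratio of scaled counts between the pools (replicate 2 over replicate 1) against mean level (TPM, log scale) for 38 of the 39 genes, with the 5th to 95th percentile of all genes tested in grey and the 2-fold limits dashed. The genes lie between -0.37 and 0.27, inside the limits, with Pars2 lowest and Nars2 highest.

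Genes that work beside the synthetases were measured from lists of their own. None of the genes tested in these lists was called between the pools, where 2.99% of all genes tested were. Under a filter of 100 counts, which most of the listed genes pass, the share called was 0.556%. The lack of calls in the lists is therefore near what such genes gave. Eef1a2, with 6 and 5 expected counts, held too few for the test. For the counts on the adjusted p below, 29.3% of all genes tested passed, 2367 higher and 2553 lower in replicate 2. The median log2 ratio of all genes tested also fell with level, from 0.01 around 10.21 TPM to -0.06 around 406.4 TPM. The relatives of synthetases outside the naming rule include editing and amidating enzymes, and 1 listed symbol, Mars1, had no match. The 13 matched genes were all detected, with a median of 22.65 TPM. The highest were Aarsd1, an alanyl-tRNA editing protein, at 70.72 and 68.2 TPM, Eef1e1, and Pstk, the kinase of the selenocysteine route, at 53.7 and 48.5 TPM. On the adjusted p alone 1 was higher and 2 were lower in replicate 2.

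Of 33 genes listed for tRNA maturation and export, all but Adat3 were matched by symbol. The 32 matched genes were all detected, with a median of 31.9 TPM. Ssb, which binds the ends of newly made tRNAs, led with 329.4 and 307.2 TPM, followed by Tsen34, of the splicing endonuclease, at 220.4 and 210.4 TPM, and Rtcb, the tRNA ligase, at 170.3 and 158.2 TPM. Of these 32 genes, 5 were higher and 5 lower on the adjusted p alone. Xpot, the tRNA exporter, was at 30.24 and 33.4 TPM.

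Of the genes listed for mitochondrial translation factors and tRNA enzymes, all but Trmt61b were matched by symbol. The 26 matched genes were also all detected, with a median of 26.94 TPM beside 15.44 TPM for the 17 mitochondrial synthetases. They include genes of other mitochondrial roles, such as Tfam, Polrmt and Lrpprc, so this median is not one of translation factors and tRNA enzymes alone. Hsd17b10, a subunit of mitochondrial RNase P, had 201 and 182.6 TPM, the ribosomal protein gene Mrpl12 137.9 and 121.9 TPM, and Tufm, the elongation factor that receives charged mitochondrial tRNA, 126.3 and 122.5 TPM. On the adjusted p alone 3 were higher and 6 lower. Gatb, Gatc and Qrsl1 make the glutamine tRNA of mitochondria without a mitochondrial glutamine enzyme, and they had 21.51 and 20.59, 33.73 and 34.7, and 23.97 and 21.33 TPM.

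Among these lists, that of cytoplasmic carriers of charged tRNA had the highest median, 248.3 TPM over 8 genes. It also holds the exchange factor subunits Eef1b2, Eef1g and Eef1d, so this median is not one of carriers alone. Eef1a1, the elongation factor that brings charged tRNA to the ribosome, had 4294 and 3850 TPM, its exchange factor subunit Eef1b2 555.8 and 483.7 TPM and Eef1g 473.4 and 429.7 TPM. Eef1a2, the form known from muscle and nerve, was the only one not detected, at 0.11 TPM in both libraries. On the adjusted p alone 1 was higher and 4 lower.

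Genes of amino acid starvation sensing and targets of Atf4 were detected in 28 of 30 cases, with a median of 23.17 TPM. Phgdh, of serine synthesis, had 260.2 and 236 TPM, the amino acid transporter Slc38a2 187.2 and 178.8 TPM, and Atf4 itself 97.58 and 81.49 TPM. Nupr1 (0.99 and 0.23 TPM) and Chac1 (0.55 and 0.42 TPM) were under the detection limit, and Trib3, at 1.11 and 1.31 TPM, was just over it. On the adjusted p alone 2 were higher and 9 lower in replicate 2, where 29.3% of all genes passed in either direction. Atf4 was among those lower, at a log2 ratio of -0.21. Whether this list differs from all genes was not tested. The 5 synthetase genes with the C/EBP-ATF element had log2 ratios of 0.07 (Aars), -0.09 (Gars), 0.07 (Iars), 0.01 (Tars) and -0.10 (Yars).

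**Figure D5:**
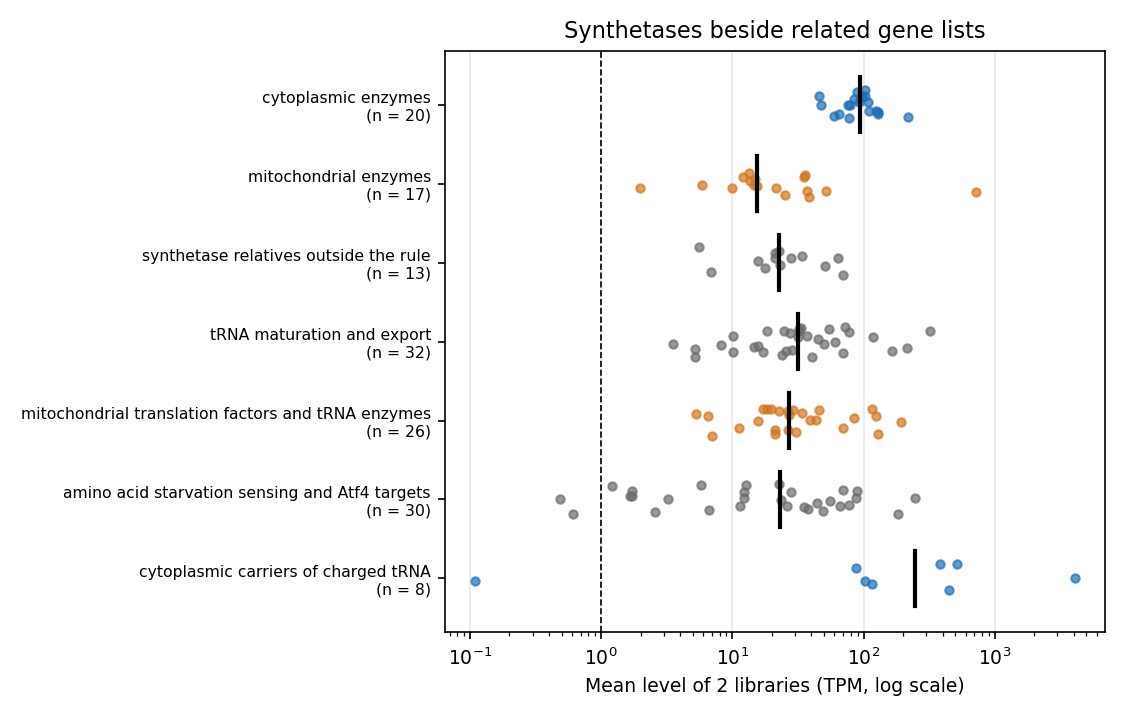
Mean level of each gene (TPM, log scale, mean of 2 libraries) in the cytoplasmic and mitochondrial synthetases and 5 related lists, with the median as a black bar and the 1 TPM limit dashed. The cytoplasmic synthetases lie in a narrow band around 93.7 TPM, and the mitochondrial ones have a median of 15.44 TPM.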

How the data were processed

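Total RNA longer than 200 nt was extracted with mirVana and 10 ng entered each of 2 libraries, per the labels. The authors deposited expected counts per gene and transcript, made from alignments to the mm10 transcriptome under GENCODE M4, per the file headers. The deposited TPM values are scaled over all entries, spike-ins included. The deposited FPKM values and the percent of a gene's TPM per transcript were also used. Credibility bounds of TPM, deposited and handled as a score, were not used. The aligner, tool versions and strand setting were not given in the sources used here.

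Symbols, types and coordinates came from GENCODE M21 (GRCm38). Expected counts were rounded for tests. Entries named by a bare number (6.29e-05% and 4.76e-05% of counts) and spike-ins were left out of tests and library sizes. Scaling used TMM in edgeR 4.0.16, with DESeq2 1.42.0 size factors as an alternative. The exact binomial test ran in scipy 1.17.1 where both libraries together held at least 20 counts, with log2 ratios at a prior count of 0.5. On simulated data with counting noise alone it recovered 94.5% of 4-fold changes, with 1 false call. The simulation held no variation between pools beyond counting, so it does not give the error rate for these pools. The common biological coefficient of variation was 8.203%. Because the labels give 1 group, edgeR's quasi-likelihood test could not be used. Members were named, except 1 whose values and pair are not reported here, with the 4 highest and lowest per compartment, every pair, the members past the between-pool test and the 3 largest between-pool ratios in more detail, and the 3 highest of each list. The members and lists were chosen with earlier results of these data known, and the motifs other than the C/EBP-ATF element were added after the data were seen. Protein sequences were not used here. Replicates are pools that the labels call biological replicates.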

Additional observations from a re-analysis of the deposited data

How the results depend on the processing

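Of 37 alternatives to the 4 main results, 34 left the result in place and 3 moved it. The median log2 difference between cytoplasmic and mitochondrial pairs rose from 2.04 to 2.39 with only the most abundant protein-coding transcript and to 2.49 with CPM not divided by length. Leaving out replicate 1 or replicate 2 gave 1.93 to 2.21. The number of genes called between pools went from 0 to 14 with no minimum ratio, and was 0 under the other 8 alternatives, which cover scaling, count filter, a log2 minimum of 0.5, edgeR and an adjustment for length. The members' log2 ratios ran from -0.37 to 0.27 under TMM, so a minimum of 0.5 or 1 left none to call there, and these counts of 0 do not measure stability. That edgeR test, whose spread includes the difference under test, called 0.185% of all genes, and spike-in scaling 8.34%. With no minimum ratio, spike-in scaling gave 39 of 39 lower in replicate 2, where 80.8% of all genes tested passed. The cytoplasmic gene was higher in 16 pairs under all alternatives but that without Eprs, which has 15 pairs and gave 14. Detection of 39 genes held in all alternatives but the limit of 5 TPM, which gave 38. Leaving out the leucine pair was chosen after seeing the data. The cause of the moved values was not tested. No paired analysis was possible because the labels give a single group. With 2 libraries no SD rests on more than 1 degree of freedom, and counting limits the genes with the fewest expected counts, Cars2 and Wars2, most.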
